A study of Mus musculus with 8 samples.

Results

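Described here are 10 genes of muscle actins, troponins and tropomyosins in the mouse ventricle. Their actins are Acta1, Acta2 and Actc1, their troponins Tnnt1, Tnnt2, Tnni1, Tnni3 and Tnnc1, and their tropomyosins Tpm1 and Tpm3. Not all stand for the thin filament of heart muscle. Acta2 encodes a smooth muscle actin, and nearly all Tpm3 signal was assigned to the start of its short, cytoskeletal forms. They were taken by gene symbol and are 10 of the 23100 loci in the gene table. Cuffdiff, the authors' test, gave a result for 9 of the 10 and for 12133 loci in all. RNA was sequenced from 8 samples of cardiac ventricle, without atria, from mice aged 4.5 months, and all 8 carried loxP-flanked alleles of Sox5 and of Sox6, genes for transcription factors of the SoxD group. The 4 DKO samples (Sox5fl/fl, Sox6fl/fl, aMHC-Cre pos) also had Cre recombinase under the αMHC promoter, which acts in cardiomyocytes, so that other cells of the ventricle kept both genes. The 4 Ctrl samples (Sox5fl/fl, Sox6fl/fl, aMHC-Cre neg) had no Cre, and an effect of Cre itself cannot be told apart from that of the deletion. The series title speaks of pressure overload, but no operation is given in the labels.

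In the sarcomere, the actin filament carries tropomyosin along its length and a troponin complex at regular intervals. Troponin C binds calcium, troponin I holds the filament off, and troponin T ties both to tropomyosin, which then moves to free the myosin binding sites. Each of these proteins has versions encoded by separate genes that differ between heart, slow muscle, fast muscle and smooth muscle. In the rodent heart, genes of the fetal or skeletal versions, Acta1 foremost, are known to be expressed more in overload and failure. Sox6 is known in skeletal muscle as a repressor of slow fiber genes, a group that includes Tnni1, Tnnt1, Tnnc1 and Tpm3.

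The tables hold 1 FPKM value (fragments per kilobase of transcript, scaled to the mapped total) per genotype, pooled by the authors over samples. No value carries an error between samples, the depth of the libraries is unknown here, and the q-values of the authors' deposited table are the only test across samples. The labels number the samples of a group but do not say that each came from a separate animal, and without that the q-values measure only the spread between samples, which may be technical. A gene was called at a q of at most 0.05, and a log2 ratio sets DKO over Ctrl. Sox6, the targeted gene with a test, was at 1.69 against 3.39 FPKM in DKO and Ctrl (q = 0.00158 in the authors' deposited table), and Sox5 at 0.497 and 0.369 FPKM had none. Of 9 atrial markers, Sln (0.0671 in DKO and 0.367 in Ctrl), Myl7 (0.140 and 0.192) and Bmp10 (0.0364 and 0.0204) were near 0 in both genotypes. Dkk3 was at 1.59 and 0.804, Myl4 at 3.58 and 3.69 and Nr2f2 at 3.76 and 3.56, while Nppa, Pam and Kcnj3 were higher than those.

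Skeletal and smooth muscle actin were the genes of the 10 that were called higher in DKO ventricles, and none was called lower. Of the 9 tested genes, 2 were called, beside 7.36% of all tested genes. Both were higher, beside 4.30% called higher, and 0 were called lower by Cuffdiff, beside 3.06%. At a q under 0.01, or with a fold of at least 1.3, Acta1 was the 1 gene called higher, beside 2.74% and 3.60% of all tested genes. At an unadjusted p under 0.05 by Cuffdiff, 2 of the 9 were higher and 2 were lower. Of all 12133 tested genes, 1065 were higher and 941 lower at that cut. The 9 had a median log2 ratio of -0.00331 (all tested genes: -0.00418), with 4 above 0 and 5 below. Of the 5 most abundant genes, Actc1, Tnnt2, Tnni3 and Tpm1 lay below 0, between -0.12 and -0.31, and Tnnc1 lay above it at 0.06. The same sign was common at such levels. Of 95 tested genes at 1000 FPKM or more in Ctrl, 85 lay below 0, with a median of -0.19. Cuffdiff called 10 of the 95 lower and 1 higher. These 95 include the 5 genes above, and the median is the ratio of Tnnt2 itself. The cut on the Ctrl level leaves out genes that rose past it, such as Acta1, so these counts lean below 0 partly by that choice.

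**Figure D1:**
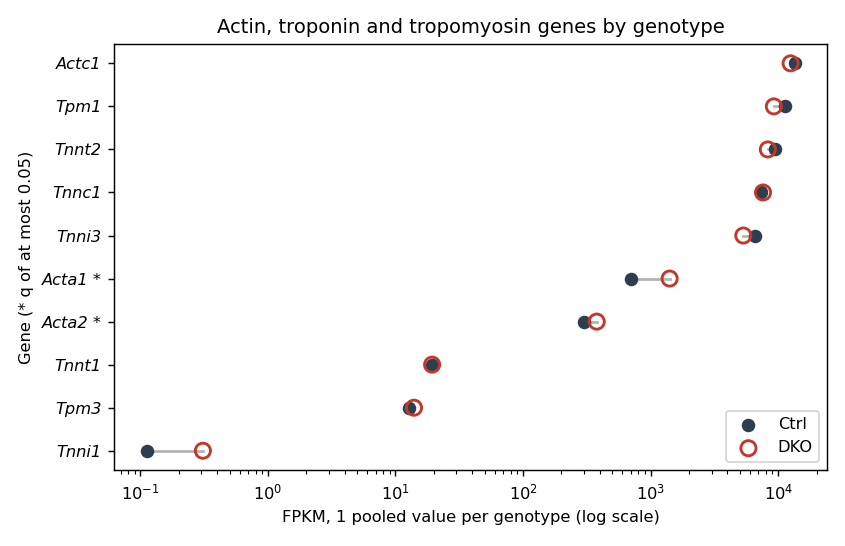
Level of each of the 10 genes in Ctrl (filled points) and DKO (open rings), 1 pooled FPKM value per genotype on a log axis, with an asterisk at genes called at a q of at most 0.05. The genes span from 0.112 FPKM (Tnni1) to 13546 FPKM (Actc1) in Ctrl, and the gap between genotypes is widest at Tnni1, which was not tested, and at Acta1.

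Levels in Ctrl fell into 3 tiers. Actc1 (13546 FPKM, rank 3 of all loci), Tpm1 (11309, rank 4), Tnnt2 (9469, rank 6), Tnnc1 (7294, rank 11) and Tnni3 (6603, rank 13) formed the upper one. Acta1 at 697 FPKM and Acta2 at 302 FPKM stood between, at ranks 145 and 299. Tnnt1 (19.4), Tpm3 (12.8) and Tnni1 (0.112) were low. The 10 genes had the same order in DKO, and Acta1 moved from rank 145 to rank 56 of all loci. Whether neighbours in this order differ cannot be judged without values per sample.

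Acta1 encodes the α-actin of skeletal muscle, which the adult mouse ventricle makes beside the cardiac form. Its level was 1409 FPKM in DKO ventricles against 697 in Ctrl, a 2.02-fold higher level (log2 ratio 1.02, q = 0.00158 in the authors' deposited table). That is the smallest value the table gives any gene, and 385 called genes share it. In the mm9 build its locus is chromosome 8, 126415667 to 126418641. Both listed isoforms were higher. The reference transcript of 1433 bases was at 1177 against 589 FPKM (q = 0.00312 in the authors' deposited table), and a form of 778 bases, which shares a splice junction with the reference, was at 232 against 108 FPKM (p = 0.0039 and q = 0.0984 in that authors' deposited table). The short form held 16.5% of the Acta1 signal in DKO and 15.4% in Ctrl, so the makeup of the gene's transcripts moved little while its level rose.

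Actc1, the cardiac α-actin and the main actin of the adult ventricle, was at 12506 FPKM in DKO against 13546 in Ctrl (log2 ratio -0.12, q = 0.857 in the authors' deposited table). Its locus is chromosome 2, 113873025 to 113889696 (mm9), with 1 listed isoform. The difference between the genotypes was 713 FPKM upward for Acta1, and Actc1 dropped by 1040 FPKM without a call. Acta1 thus held 10.1% of the summed Acta1 and Actc1 signal in DKO and 4.89% in Ctrl, while the sum itself was 13915 against 14242 FPKM, a log2 ratio of -0.03. Actc1 exceeded Acta1 by 8.87 times in DKO and by 19.4 times in Ctrl. These shares come from 2 pooled values each and have no test.

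The coding sequences of the 3 actins are of equal length, 1134 bases, and how far they differ bears on how well short reads separate them. In GENCODE M21 (GRCm38 build), Acta1 and Actc1 differed at 157 of these bases (86.2% identity), Acta1 and Acta2 at 166 (85.4%) and Actc1 and Acta2 at 198 (82.5%). The first 45 coding bases, which hold the part where the actin proteins differ most, are shown with capitals at each position where the 3 are not alike.
Acta1: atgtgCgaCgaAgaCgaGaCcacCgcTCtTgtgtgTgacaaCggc
Actc1: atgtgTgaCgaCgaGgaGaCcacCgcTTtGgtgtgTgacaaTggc
Acta2: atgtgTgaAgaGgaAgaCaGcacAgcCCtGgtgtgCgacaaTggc
Capitals fell at 12 of the 45 positions. None of the 50-base windows of Acta1, Actc1 or Acta2 occurred exactly in another of the 10 genes. Of the 1397 windows of Acta1, 31 (2.22%) occurred in transcripts of other genes, chiefly Actb and actin pseudogenes, and of the 1986 windows of Acta2, 7 (0.352%). Actc1 shared 0 of its 1424 windows. The sources used here do not give the read length, and 50 bases were chosen for this count.

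Acta2 encodes the α-actin of smooth muscle, which myofibroblasts and embryonic cardiomyocytes also make. Its level was 378 FPKM in DKO ventricles against 302 in Ctrl, 1.25-fold higher (log2 ratio 0.32, q = 0.0241 in the authors' deposited table). Its locus is chromosome 19, 34314884 to 34329827 (mm9). Of 5 listed isoforms, 1 was called, a form of 1361 bases that shares a splice junction with the reference and held 81.5% of the signal in DKO and 74.9% in Ctrl, at 308 against 226 FPKM (q = 0.0200 in the authors' deposited table). A form of 1100 bases went the other way, at 58.8 against 69.4 FPKM (q = 0.929 in the authors' deposited table). The full reference transcript of 1780 bases was at 7.99 and 5.90 FPKM, 2.11% and 1.95% of the signal. The coding sequence table lists only that reference form, so the call of Acta2 is absent there (q = 0.884 in the authors' deposited table). The other 2 isoforms reached at most 2.31 FPKM.

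Smooth muscle cells, pericytes, fibroblasts and myofibroblasts were described by lists of marker genes. The counts called are to be read beside the 4.30% of all tested genes called higher and the 3.06% called lower. At an unadjusted p under 0.05, 1065 of all 12133 tested genes were higher and 941 lower. Of the smooth muscle markers, 0 of 12 tested were called by Cuffdiff, and 2 had an unadjusted p under 0.05, both higher. Their median log2 ratio was 0.08 and their summed level 1933 FPKM in DKO and 1661 in Ctrl, most of it from Des, the muscle desmin gene that cardiomyocytes express too (1675 against 1389 FPKM, q = 0.125 in the authors' deposited table). Smtn, smoothelin, was at 146 against 160 FPKM, Tagln at 26.1 against 23.7, and Myh11, the smooth muscle myosin heavy chain, at 9.57 against 8.13 (q = 0.155 in the authors' deposited table). Pericyte markers held 0 called genes of 7 and 0 at an unadjusted p under 0.05, with Rgs5 at 186 against 181 FPKM and Abcc9 at 105 against 112, and a summed level of 376 against 381. Fibroblast markers were called higher in 7 of 12, with a median of 0.33 and a summed level of 1407 against 1136 FPKM, led in level by Gsn (565 against 480, not called) and Dcn (465 against 376). The called ones, besides Dcn, were Dpt, Col3a1, Lum, Col1a2, Col1a1 and Mfap5. At an unadjusted p under 0.05, 11 of the 12 fibroblast markers were higher and 0 lower. Genes of myofibroblasts were called higher in 7 of 9, with a median of 0.86 and a summed level of 103 against 64.6 FPKM, and no marker of these 4 lists was at 0 (Tagln is on 2 of them). The called ones were Postn (33.5 against 15.4 FPKM), Fn1, Col8a1, Cilp, Lox, Comp and Tnc. Of these, Comp (1.76 against 0.949 FPKM) and Tnc (1.15 against 0.185) were under 1 FPKM in Ctrl. With at least 1 FPKM required in both genotypes, 5 called genes remained. Fap (2.49 against 2.64 FPKM) and Tagln were tested and not called. The part of these cell types in the Acta2 result was not tested, and in bulk tissue more or fewer cells of a type cannot be told apart from more or less RNA per cell.

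Promoters of the 3 actins were examined for known elements of muscle genes, because 2 of the 3 genes rose and Actc1 was not called. The CArG box binds serum response factor, the M-CAT element binds TEAD factors, and SoxD proteins bind an AACAAT core. The 250 bases before the RefSeq start (GRCm38.p6) are shown 5′ to 3′, with capitals at CArG boxes, at CArG-like elements (1 of the 6 central bases is G or C), at M-CAT elements, at TATA boxes and at the Sox core. The M-CAT element was searched as CATTCC on both strands. The TATA box was searched as TATAAA and the Sox core by the letters named above, likewise on both strands of each window. A CArG-like element was counted apart from a strict CArG box. Their places are chr8:123894776-123895025, chr19:34255374-34255623 and chr2:114052876-114053125, all on the minus strand.
Acta1: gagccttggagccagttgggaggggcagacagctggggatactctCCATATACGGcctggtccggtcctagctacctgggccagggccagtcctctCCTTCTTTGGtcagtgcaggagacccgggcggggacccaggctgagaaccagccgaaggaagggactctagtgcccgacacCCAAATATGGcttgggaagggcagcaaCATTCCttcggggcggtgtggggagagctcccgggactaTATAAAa
Acta2: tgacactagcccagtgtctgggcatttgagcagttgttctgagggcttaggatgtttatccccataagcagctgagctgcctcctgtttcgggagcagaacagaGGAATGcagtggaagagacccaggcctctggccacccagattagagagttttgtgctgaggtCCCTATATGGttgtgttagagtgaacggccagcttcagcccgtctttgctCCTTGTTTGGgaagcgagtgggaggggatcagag
Actc1: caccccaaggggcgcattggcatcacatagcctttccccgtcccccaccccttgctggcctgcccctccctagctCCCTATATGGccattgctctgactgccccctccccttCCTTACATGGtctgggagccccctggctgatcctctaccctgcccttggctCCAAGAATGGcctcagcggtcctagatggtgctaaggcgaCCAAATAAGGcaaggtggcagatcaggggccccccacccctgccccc
Acta1 held 3 CArG or CArG-like elements, Acta2 2 and Actc1 4. A strict CArG box stood 73 to 64 bases before the RefSeq start of Acta1 and 47 to 38 bases before that of Actc1, and Acta2 held none. These distances depend on the start used. In GENCODE M21 the transcripts begin at 123894751 (Acta1), 34255590 (Acta2) and 114052887 (Actc1). Those of Acta2 and Actc1 lie inside the windows, so by that annotation most of the Acta2 window is within the transcript. Acta1 and Acta2 each had 1 M-CAT element and Actc1 had none, and the Sox core was in none of the 3 windows.

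Over the 32851 promoter windows of the same length, 1.47% held a strict CArG box, 8.59% a CArG or CArG-like element, 12.6% an M-CAT element, 12.4% a TATA box and 9.42% the Sox core. The 10 genes had 13 windows, of which 5 held a CArG or CArG-like element (the 3 actins and both windows of Tpm3). M-CAT was in 5 windows, those of Acta1, Acta2, Tnnt2, Tnnc1 and Tpm1, and the Sox core in 1, a window of Tpm3. M-CAT was thus in both called genes and in 3 genes that were not called. A match is a run of letters in this window and not a binding site.

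Tnnc1, the troponin C of heart and slow muscle, binds the calcium that starts contraction. Its level was 7603 FPKM in DKO against 7294 in Ctrl (log2 ratio 0.06, q = 0.923 in the authors' deposited table), on chromosome 14, 32021498 to 32025788 (mm9). Its reference transcript of 703 bases was at 4841 against 4617 FPKM, and a form of 408 bases that shares a junction with it was at 2762 against 2677. The short form held 36.3% of the signal in DKO and 36.7% in Ctrl. The remaining form, of 702 bases, was listed at 0 in DKO and at 0.454 FPKM in Ctrl, without a test. Tnnc1 was the 1 gene of the upper tier with a ratio above 0.

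Tnni3 encodes cardiac troponin I, the inhibitory subunit that protein kinase A phosphorylates. Its level was 5322 FPKM in DKO against 6603 in Ctrl, a 1.24-fold difference (log2 ratio -0.31) that missed the threshold (p = 0.006, q = 0.0710 in the authors' deposited table). The gene lies on chromosome 7, 4469068 to 4474338 (mm9). Its reference transcript of 824 bases was at 4688 against 5756 FPKM (q = 0.316 in the authors' deposited table). A form of 729 bases from another start site group was at 635 against 847 FPKM (q = 0.897 in the authors' deposited table) and held 11.9% of the signal in DKO and 12.8% in Ctrl.

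Tnni1, the slow skeletal troponin I that the fetal heart uses before Tnni3 replaces it, stood at 0.309 FPKM in DKO against 0.112 in Ctrl, and it was not tested by Cuffdiff. It lies on chromosome 1, 137695998 to 137707566 (mm9). On the log2(FPKM + 1) scale its ratio was 0.24, against 1.46 without an added constant. Its share of the summed Tnni1 and Tnni3 signal was 0.00581% in DKO and 0.00170% in Ctrl, so nearly all troponin I transcripts were cardiac in both genotypes. Of its 2 isoforms, that of 1038 bases held 99.9% of the signal in DKO and 99.5% in Ctrl.

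Tnnt2 encodes cardiac troponin T, which anchors the complex to tropomyosin and is spliced differently in the fetal and adult heart. Its level was 8292 FPKM in DKO against 9469 in Ctrl (log2 ratio -0.19, q = 0.561 in the authors' deposited table), on chromosome 1, 137732925 to 137748838 (mm9). The main isoform, of 1131 bases, held 73.6% of the signal in DKO and 73.7% in Ctrl, at 6103 against 6975 FPKM. A form of 1152 bases was at 314 against 800 FPKM (q = 0.690 in the authors' deposited table) and a form of 1148 bases at 690 against 629. A form of 1117 bases was at 824 against 796, which Cuffdiff marked LOWDATA and did not test. A form of 1079 bases was at 286 against 9.82 (q = 0.886 in the authors' deposited table). A form of 1136 bases was listed at 0 in DKO and at 149 FPKM in Ctrl (p = 0.0279 and q = 0.355 in the authors' deposited table). The other 5 of its 11 isoforms were at 61.0 FPKM or less.

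The coding sequence table sums the Tnnt2 forms by the protein they encode. The main coding sequence was at 6103 against 6975 FPKM and the next at 1827 against 2225 (log2 ratio -0.28, q = 0.788 in the authors' deposited table). The third was listed at 0 in DKO and at 165 FPKM in Ctrl (p = 0.0437 and q = 0.359 in the authors' deposited table). The second of these equals the summed levels of the forms of 1152, 1117 and 1148 bases. The form of 1079 bases has no entry of its own in that table, and the main coding sequence held 76.2% of the listed signal in DKO and 73.7% in Ctrl. A second start site group held 0.286% of the signal in DKO and 0.347% in Ctrl.

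Tnnt1, the slow skeletal troponin T, was at 19.4 FPKM in both genotypes, 19.37 in DKO and 19.41 in Ctrl (log2 ratio -0.00331, q = 0.996 in the authors' deposited table), from 1 listed isoform. It lies on chromosome 7, 4456265 to 4467577 (mm9), and 1490 bases separate its locus from that of Tnni3. Tnni3 exceeded its neighbour by 275 times in DKO and 340 times in Ctrl. The other such pair, Tnni1 and Tnnt2 on chromosome 1, lies 25358 bases apart. Tnnt1 made up 0.233% of the summed Tnnt1 and Tnnt2 signal in DKO and 0.205% in Ctrl.

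**Figure D2:**
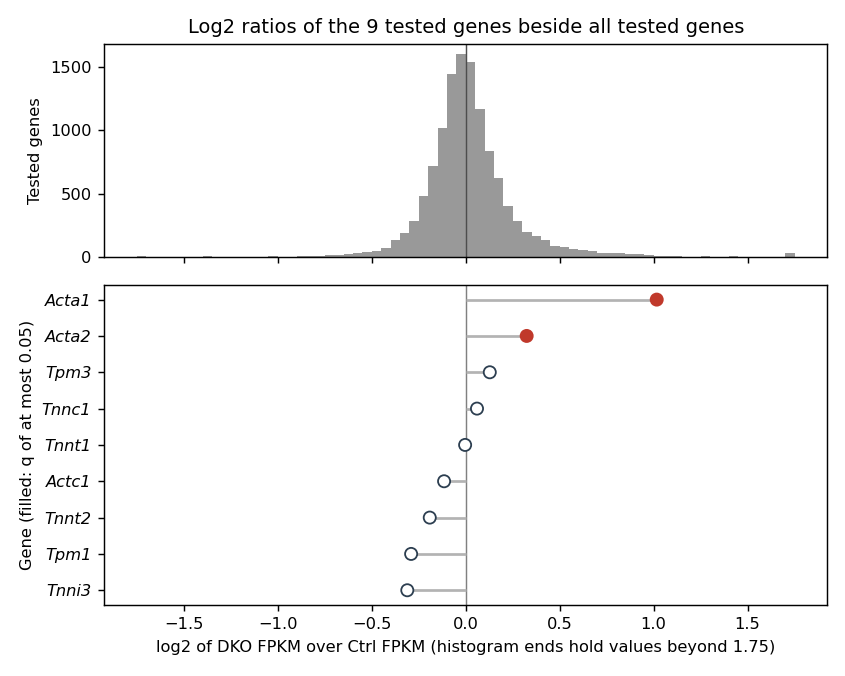
Lower panel, log2 ratio of DKO over Ctrl FPKM of the 9 tested genes, filled where the q was at most 0.05; upper panel, histogram of the same ratio over the 12133 tested genes. Acta1 at 1.02 lies in the upper tail and Acta2 at 0.32 nearer the bulk, while the other 7 lie between -0.31 and 0.13.

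Tpm1 encodes α-tropomyosin, the main tropomyosin of the adult heart. Its level was 9245 FPKM in DKO against 11309 in Ctrl, a 1.22-fold difference (log2 ratio -0.29) that was not called (p = 0.0428, q = 0.275 in the authors' deposited table). Its locus is chromosome 9, 66870400 to 66897020 (mm9). Of 14 listed isoforms 5 were tested and none was called, and 6 were listed at 0 in both genotypes. The striated muscle form of 1210 bases was at 9074 against 11109 FPKM and held 98.1% and 98.2% of the signal. A second form of 1210 bases was at 117 against 145 FPKM, 1.27% and 1.28% of the signal. The other 12 were at 36.2 FPKM or less.

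The forms of Tpm1 differ by exons that replace each other, and the levels show which choice the ventricle makes. By their RefSeq counterparts in GENCODE M21, the first and second forms differ in the sixth exon, and the form with the third highest level carries another second exon. Exon 6b lies at chr9:67031951-67032026 and exon 6a at chr9:67032466-67032541. Exon 2b, of striated muscle and most other cells, lies at chr9:67047786-67047911 and exon 2a, of smooth muscle, at chr9:67048124-67048249 (GRCm38, minus strand). Capitals mark the bases that differ within each pair.
Exon 6b: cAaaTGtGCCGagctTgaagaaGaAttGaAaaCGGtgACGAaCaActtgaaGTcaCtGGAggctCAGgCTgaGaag
Exon 6a: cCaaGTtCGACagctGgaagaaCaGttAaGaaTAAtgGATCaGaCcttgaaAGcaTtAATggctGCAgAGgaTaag
Exon 2b: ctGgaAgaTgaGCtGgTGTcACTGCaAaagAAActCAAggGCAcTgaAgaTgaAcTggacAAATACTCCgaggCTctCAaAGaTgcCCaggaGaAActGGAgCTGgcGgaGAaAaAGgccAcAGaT
Exon 2a: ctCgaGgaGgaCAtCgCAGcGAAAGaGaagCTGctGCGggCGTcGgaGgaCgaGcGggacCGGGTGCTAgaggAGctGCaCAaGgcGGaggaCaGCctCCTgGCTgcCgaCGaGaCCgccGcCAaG
The exons of the first pair are 76 bases long and differ at 33 of them (56.6% identity), and those of the second pair are 126 bases long and differ at 66 (47.6% identity). The isoform with exon 6b exceeded that with exon 6a by a wide margin in both genotypes, as the shares above show. The isoform with exon 2a was at 36.2 FPKM in DKO against 34.9 in Ctrl (q = 0.998 in the authors' deposited table), 0.392% and 0.309% of the signal. Tpm1 shared 0 of its 1159 windows of 50 bases with transcripts of other genes.

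Tpm3, whose long form is the tropomyosin of slow skeletal fibers and whose short forms belong to the cytoskeleton of most cells, was at 14.0 FPKM in DKO against 12.8 in Ctrl (log2 ratio 0.13, q = 0.697 in the authors' deposited table). Its locus is chromosome 3, 89876573 to 89904824 (mm9). Nearly all of its signal was assigned to the downstream start site group, which held 98.9% in DKO and 99.2% in Ctrl. Both isoforms of that group, at 7.78 against 7.09 FPKM and 6.03 against 5.59, have counterparts in GENCODE M21 that begin at 90079540 and 90079654 (chromosome 3, GRCm38, plus strand), after the first exons of the long transcript, which begins at 90072651. The isoform of the upstream start was at 0.152 against 0.0977 FPKM, without a test. The values of Tpm3 and their split between the starts are uncertain. Of the 2181 windows of 50 bases in its leading transcript, 1456 (66.8%) also occur in Tpm3-rs7, a related copy. Tpm3 made up 0.151% of the summed Tpm1 and Tpm3 signal in DKO and 0.113% in Ctrl.

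Across the feature tables, the calls stayed with Acta1 and Acta2. Of 44 isoforms 29 were tested and 2 were called, both higher, beside 3.02% of all tested isoforms called, 1.90% higher and 1.12% lower. Of 15 start site groups 12 were tested and 2 were called, both higher, beside 4.94% of all, 2.95% higher and 1.99% lower. Of 26 coding sequences 18 were tested and 1 was called, that of Acta1, higher, beside 4.64% of all, 2.98% higher and 1.66% lower. Isoforms without a call went both ways. Single isoform values rest on a model that splits reads between overlapping transcripts and are less certain than gene totals.

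**Figure D3:**
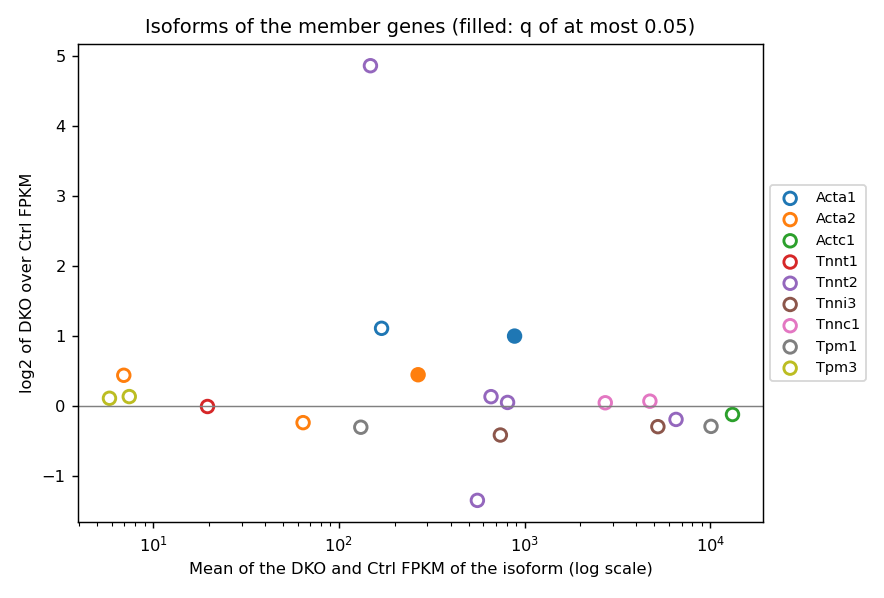
Log2 ratio of DKO over Ctrl FPKM against mean FPKM (log axis) for 20 isoforms of the 10 genes that reached 1 FPKM and 1% of their gene in either genotype, coloured by gene and filled where the q was at most 0.05. A further form, of Tnnt2, is left out because it was listed at 0 in DKO. The called forms of Acta1 (1.00) and Acta2 (0.45) are filled, and the widest ratios belong to uncalled minor forms of Tnnt2.

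Paralogs of these 10 genes and genes of filament assembly were described in the same way. Their counts are to be read beside the 7.36% of all tested genes that were called. At an unadjusted p under 0.05, 1065 of all 12133 tested genes were higher and 941 lower. Of the 8 remaining actin, troponin and tropomyosin paralogs 6 were tested and 0 were called by Cuffdiff, with 0 at an unadjusted p under 0.05 and a median log2 ratio of 0.14. Actb, a cytoplasmic actin, was at 212 against 198 FPKM, and Tpm4, a cytoskeletal tropomyosin, at 50.9 against 54.0. The fast skeletal troponins were low, with Tnni2 at 2.86 against 2.48 FPKM, Tnnt3 at 0.728 against 0.369 and Tnnc2 at 0.321 against 0.340, the latter pair untested. Among genes of filament assembly, capping and turnover, 1 of 26 tested was called higher and 0 lower (0 lower also at an unadjusted p under 0.05), with a median of 0.03. It was Cttn, cortactin, a binder of branched actin, at 26.6 against 21.2 FPKM (q = 0.0145 in the authors' deposited table). The leading levels in that list were those of Tmsb4x, which sequesters actin monomers (673 against 639 FPKM), and Lmod2, which elongates thin filaments from the pointed end (490 against 480).

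Of 23 tested regulators of these genes, 1 was called higher and 1 lower, beside 4.30% and 3.06% of all tested genes. Their median log2 ratio was -0.02. At an unadjusted p under 0.05, 3 were higher (Hopx, Abra and Tbx20) and 1 was lower, beside 1065 and 941 of all 12133 tested genes. Hopx, a cardiac cofactor that binds serum response factor, was higher at 467 against 316 FPKM (q = 0.00158 in the authors' deposited table), and the targeted Sox6 was the lower one. Srf, serum response factor itself, was at 42.3 against 39.3 FPKM, its cofactor gene Myocd at 18.8 against 20.8, Mkl1 at 3.64 against 2.98 and Tead1, which binds M-CAT elements, at 37.0 against 39.9. Fhl2, a partner of serum response factor, had the highest level of the list, at 2055 against 2340 FPKM.

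The slow skeletal program, of which Tnni1, Tnnt1, Tnnc1 and Tpm3 are members, was described with and without them. Of its 12 tested genes 1 was called, beside 7.36% of all tested genes, and the median log2 ratio was -0.08. Without those 4 genes, 1 of 9 tested was called higher, Myh7b, a slow myosin heavy chain gene (48.6 against 36.8 FPKM, q = 0.0185 in the authors' deposited table), and 0 were called lower. At an unadjusted p under 0.05, 2 of the 9 were higher, Myh7b and Myh7, and 1 was lower, Myl2. Of all 12133 tested genes, 1065 were higher and 941 lower by that measure. The median log2 ratio of the 9 was -0.21. Among the 9, Myl2, Myl3, Pln and Atp2a2 are also on the cardiomyocyte marker list below, so the medians of these lists are not independent. Myl2 and Myl3, the myosin light chains of slow muscle and ventricle, were at 17014 against 20639 FPKM and 8826 against 10208, and Myh7, the slow myosin heavy chain, at 287 against 246 (q = 0.264 in the authors' deposited table). Of the fast skeletal program 5 of 15 were tested. Mybpc2 (14.8 against 6.62 FPKM) and Casq1 (14.9 against 10.8) were called higher and Myl1 (23.6 against 39.4) was called lower. Each had q = 0.00158 in the authors' deposited table. These counts stand beside 4.30% of all tested genes called higher and 3.06% called lower. Mylpf and Tnni2 were tested and not called. The other 10 genes of that program were under 1 FPKM in Ctrl.

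Markers of the cell types set the scale for the cardiac members. Counts called stand beside 4.30% of all tested genes called higher and 3.06% called lower. Counts at an unadjusted p under 0.05 stand beside 1065 higher and 941 lower of all 12133 tested genes. Cardiomyocyte markers had 0 called genes of 12 by Cuffdiff, with 3 lower at an unadjusted p under 0.05, ratios below 0 in 12 of 12, a median of -0.21 and a summed level of 58370 FPKM in DKO and 69269 in Ctrl. The most abundant, besides Myl2, was Mb, myoglobin, at 14207 against 17576 FPKM. With that median set to 0, the ratios of Actc1 (0.10), Tnnt2 (0.0196), Tpm1 (-0.08) and Tnni3 (-0.10) lay on both sides of it. On the same scale the ratio of Tnnc1 was 0.27, that of Tnnt1 0.21, that of Tpm3 0.34, that of Acta2 0.54, that of Acta1 1.23 and that of the untested Tnni1 1.67. The part of cardiomyocyte content in these values was not tested. Atrial markers were called higher in 3 of 6 tested, Nppa (1303 against 464 FPKM), Pam and Dkk3, and lower in 1, Kcnj3.

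**Figure D4:**
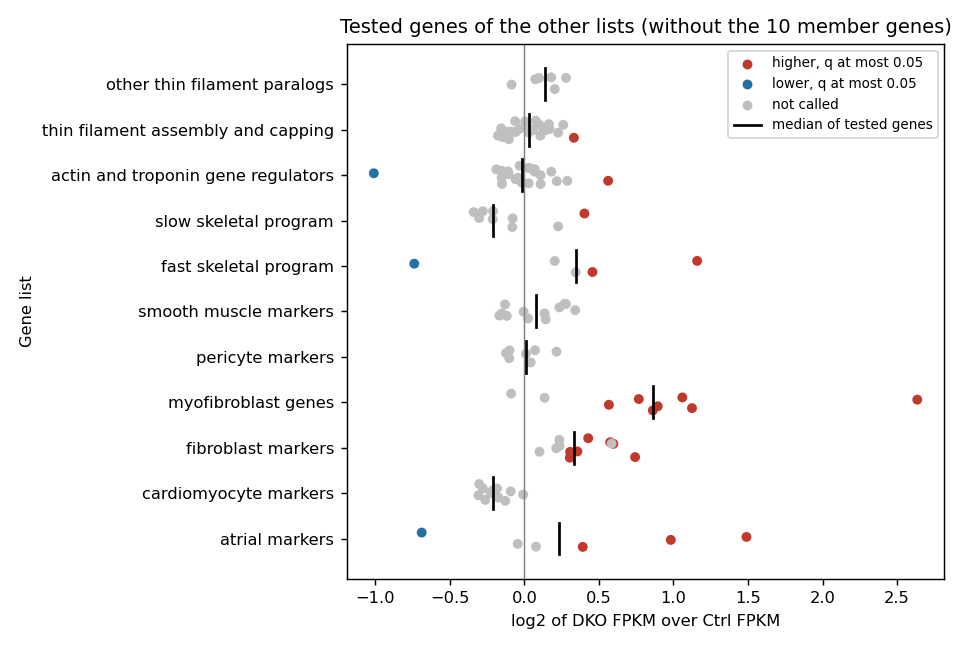
Log2 ratio of DKO over Ctrl FPKM for the tested genes of each other list, without the 10 genes themselves, red where called higher and blue where called lower, with a black bar at the list's median. Myofibroblast genes (median 0.86) and fibroblast markers (0.33) lie to the right and cardiomyocyte markers (-0.21) to the left of 0.

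The tested genes whose pair of levels lay nearest to that of Acta1, measured as distance on the log2 scale over the 2 pooled values, were Mir762 (distance 0.57), Nppa (0.60) and Ctsd (0.61). Of these Nppa was called, at 1303 against 464 FPKM, while Mir762 and Ctsd were not (q = 0.947 and 0.524 in the authors' deposited table). For Acta2 they were Ankrd23 (distance 0.08, 378 against 318 FPKM), Ndrg4 (0.10, 359 against 289) and Pam (0.12, 366 against 279). Of those, Ndrg4 and Pam were called higher. All these neighbours were picked by the same 2 values that make the ratio. Likeness in ratio, and partly in call, thus follows from the choice and is no result about Acta1 or Acta2.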

How the data were processed

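RNA of 4 DKO and 4 Ctrl ventricle samples was sequenced single-end from TruSeq libraries, per the labels' protocols. The authors used TopHat2 2.0.9, Cufflinks 2.1.1 and Cuffdiff 2.1.1 with the build mm9, per the submitters' processing notes; the sources used here do not give annotation or settings. The FPKM values, p-values and q-values are the authors', per the file headers, with 1 FPKM per genotype and no value per sample. A Benjamini-Hochberg adjustment of the deposited p-values of 12133 genes returned the deposited q-values, with a largest difference of 5.18e-07.

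Here, log2 ratios, isoform shares, list counts and medians were computed from the deposited FPKM with Python 3.11.15, pandas 2.3.3 and numpy 2.4.6, and drawn with matplotlib 3.10.9. The counting and motif code was tested on simulated data. Loci are mm9, written counting from 1. Promoters are RefSeq's (GRCm38.p6), matched by symbol for 10 of 10 genes, and transcripts are GENCODE M21's (GRCm38), and neither was mixed with mm9 positions. The members and lists were chosen with earlier results of these data known. Named genes were the 10 members, all called genes and the 2 of highest Ctrl level per list, and isoforms of at least 1 FPKM and 1% of their gene. Further genes named were chosen after their values were seen. Among them were Srf, Myocd, Mkl1, Tead1, Tagln, Myh11, Myh7, Abra, Tbx20, Sln, Myl7, Bmp10, Myl4, Fap, Mylpf and the fast troponins.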

Additional observations from a re-analysis of the deposited data

How the results depend on the processing

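Of the 10 genes, 2 were called. Acta1 alone was called at a q under 0.01, with a fold of at least 1.3, or from coding sequences, each a count of 1, and the Acta2 call was absent in each. For coding sequences the deposited table holds only the reference form of Acta2, with a log2 ratio of 0.44 (q = 0.884 in the authors' deposited table). The authors' own flag, isoforms and start site groups each gave the count of 2 again. The flag matched the q threshold in all genes, so its count could not differ. Of 70 recomputed log2 ratios of the members, 65 kept their sign and side of the threshold and 1, that of Acta2 from coding sequences, lost its call. The remaining 4 changed sign, all in uncalled genes. With the median of the cardiomyocyte markers (-0.21) set to 0, Tnnt2 became 0.0196, Actc1 0.10 and Tnnt1 0.21. With the median of all tested genes (-0.00418) set to 0, Tnnt1 became 0.000872. Of 22 recomputed shares of a main isoform, 1 moved: the share of the main Tnnt2 isoform in DKO minus that in Ctrl went from -0.06 percentage points to 1.3 with tested isoforms only, and over coding sequences it was 2.49. Rescaling and added constants leave the authors' q-values as they are, so they could not change a call and do not test the calls. An added constant could not change a sign either. Actc1 and Tnnt1, each with 1 listed isoform, repeat the gene's ratio at the other levels. The count of 65 was thus largely fixed in advance and does not measure how firm the ratios are.

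No paired analysis was possible because the tables hold 1 pooled value per genotype, and for the same reason leaving out each sample was not run. Depth per library is unknown here, so no detection floor or interval was computed, and low values such as those of Tnni1 and Tnnt3 have no known precision.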
